A study of Mus musculus with 24 samples.

Results

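The genes described here are 5 keratins of simple epithelia (Krt7, Krt8, Krt18, Krt19 and Krt20) with Sox9, Tff2, Defb1 and Fabp2, all named as duct or epithelial genes of the pancreas and gut. They were found on the array by gene name or RefSeq accession, and all 9 were present and passed the filter on dim probes, among 18071 genes tested. They are carried by 15 different probes of 41174, printed as 24 spots. Islets of Langerhans were isolated from single female NOD mice (NOD/LtJ) aged 10 days, 4, 12 or 20 weeks, 6 for each age. NOD mice develop autoimmune diabetes as lymphocytes enter the islets. Each mouse was set on its own 2-colour array against pooled islets of 6 age-matched NOD.B10 females (NOD.B10Sn-H2b/J), a strain with the NOD background and another MHC haplotype that does not develop the disease. The NOD RNA was in the red channel and the pool in the green channel on all 24 arrays. The labels and the pool channels were read as 1 pool per age, so each age had 1 control sample: a test of the ratio leaves out the spread between NOD.B10 mice, and a difference between ages holds any difference between the pools.

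Keratins form the intermediate filaments of epithelial cells, built from pairs of 1 type I and 1 type II chain. Krt7 and Krt8 are type II chains and Krt18, Krt19 and Krt20 are type I chains, and Krt8 pairs with Krt18. In the pancreas, Krt7 and Krt19 are used as duct markers, while Krt8 and Krt18 are also made by acinar and endocrine cells. Islets freed by collagenase carry some duct and acinar tissue, so such genes are read on any islet array. Sox9 is a transcription factor of duct cells and of pancreatic progenitors, Tff2 is a secreted trefoil peptide of mucous epithelia, Defb1 is an antimicrobial beta-defensin of epithelial surfaces, and Fabp2 is the fatty acid binding protein of the small intestine.

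Krt7, Krt8 and Krt18 lie on chromosome 15, and their promoters are shown because the ratios of Krt8 and Krt18 were closely correlated over the arrays and that of Krt7 was not correlated with Krt8. Krt20 on chromosome 11 is shown because its level differed most between ages. Each sequence runs from 250 bases before the RefSeq start of the gene through 30 bases from it, on the gene's strand (RefSeq, GRCm38.p6). Promoters of 5 of the 9 genes were found in the RefSeq table. The Krt7 window is chr15:101412153-101412432 on the plus strand, the Krt8 window is chr15:102004313-102004592 on the minus strand, the Krt18 window is chr15:102027966-102028245 on the plus strand, and the Krt20 window is chr11:99438124-99438403 on the minus strand. Capitals mark TATAAA, a core promoter motif bound by TBP, and GGGCGG, a motif bound by Sp1, each on either strand.
Krt7: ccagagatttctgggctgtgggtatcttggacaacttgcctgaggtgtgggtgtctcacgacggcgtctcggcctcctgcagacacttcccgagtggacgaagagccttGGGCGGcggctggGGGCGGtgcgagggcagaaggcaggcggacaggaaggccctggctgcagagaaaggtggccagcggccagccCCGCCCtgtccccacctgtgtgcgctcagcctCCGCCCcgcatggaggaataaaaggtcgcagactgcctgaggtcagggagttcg
Krt8: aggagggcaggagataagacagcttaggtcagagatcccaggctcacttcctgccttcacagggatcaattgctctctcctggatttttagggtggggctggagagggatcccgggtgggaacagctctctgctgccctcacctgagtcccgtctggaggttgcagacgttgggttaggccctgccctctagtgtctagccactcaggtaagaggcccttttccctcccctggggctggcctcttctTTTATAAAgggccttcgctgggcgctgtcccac
Krt18: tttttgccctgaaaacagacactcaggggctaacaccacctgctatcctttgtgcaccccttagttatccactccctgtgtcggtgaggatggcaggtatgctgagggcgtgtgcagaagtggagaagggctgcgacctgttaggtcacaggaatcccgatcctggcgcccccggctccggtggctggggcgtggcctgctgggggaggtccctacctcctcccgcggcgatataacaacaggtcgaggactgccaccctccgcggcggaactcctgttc
Krt20: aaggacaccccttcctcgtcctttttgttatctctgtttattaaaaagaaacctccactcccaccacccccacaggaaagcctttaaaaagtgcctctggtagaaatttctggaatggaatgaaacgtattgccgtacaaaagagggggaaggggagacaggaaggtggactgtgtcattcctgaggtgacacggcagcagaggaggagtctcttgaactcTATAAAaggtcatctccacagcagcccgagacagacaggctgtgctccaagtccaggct
Krt7 held 4 matches to GGGCGG, 2 on each strand. Krt8 held TATAAA on both strands in overlapping bases next to its start, and Krt20 held it from position -29 relative to the start. Krt18 held neither. TATAAA was found in 13.1% and GGGCGG in 34.7% of 32841 promoter windows of the same length. TGANTCA (AP-1), AACAAT (a SOX motif) and TTTATG (a CDX motif) were searched on both strands too, and these 4 windows held none of them; they occur in 7.46%, 10.3% and 11.4% of promoters.

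Fabp2 and Sox9 were each read by probes that differed, and the first 30 of the 60 bases of these probes are given to tell them apart. The Fabp2 probe reported here is at chr3:122602276-122602335 and the second at chr3:122599692-122599751. The Sox9 probe reported here is at chr11:112647008-112647067, the probe printed as 10 spots at chr11:112648809-112648868, and the dim probe within chr11:112644310-112645162. All are on the plus strand, in the coordinates of the array files (mm9).
Fabp2 reported probe: aggctcattcgtcatcctatcagcactggt
Fabp2 second probe: caatctgaaactgacaatcacacaggatgg
Sox9 reported probe: ttccaggagagagactttaagactttgtct
Sox9 probe printed as 10 spots: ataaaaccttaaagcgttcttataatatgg
Sox9 dim probe: actctgggcaagctctggaggctgctgaac
The reported probes of the other genes lie at chr15:101258172-101258231 (Krt7), chr15:101827346-101827405 (Krt8), chr15:101862341-101862400 (Krt18), chr11:100002392-100002451 (Krt19), chr11:99289776-99289835 (Krt20), within chr17:31279256-31280080 (Tff2) and at chr8:22905041-22905100 (Defb1).

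Across the series, an array had 42.3% to 64.6% of its probes clear of background for NOD and 39.3% to 60.4% for the pool. The 2 dimmest NOD samples were replicates 5 and 6 at 20 weeks. The hormone genes Ins1, Ins2, Gcg, Sst and Ppy and the keratins Krt8, Krt18 and Krt19 were well above background in both channels of all 24 arrays. Ratios of mice of the same age correlated over genes by 0.1903 to 0.9026, and 11 of 216 pairs of arrays of different ages correlated below -0.3, the lowest at -0.5413. The labels state the dyes, so all ratios were kept as NOD over pool. Arrays came 4 to a slide, and 2 of the 6 slides held arrays of 2 ages. Ratios and levels below are log2 values, means are given with the SD over 6 mice, and a gene was called when limma's Benjamini-Hochberg adjusted p over all genes was under 0.05 and the change at least 2-fold.

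The median ratio of the 9 genes was lowest at 12 weeks. At that age Krt8, Krt18, Krt19, Defb1 and Fabp2 were lower in NOD islets than in the pool, and none of the 9 was higher: 5 of 9 were called, where 3.51% of all genes were called and 1.42% were called lower. At 4 weeks Krt20, Tff2 and Sox9 were called, all higher in NOD islets, where 2.79% of all genes were called and 1.91% higher. At 10 days Defb1 was called higher, with 3.98% of all genes called and 1.62% higher. At 20 weeks Fabp2 was called lower, with 5.1% of all genes called and 1.23% lower. A single gene of 9 at either of these ages is not read as a result about the 9 together. From the first age to the last, the median ratio of the 9 genes was 0.04, 0.58, -1.39 and -0.61, beside medians of all genes tested of 0.012, -0.0066, 0.027 and -0.0039. In whole islets, fewer cells of a type and less RNA per cell cannot be told apart.

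**Figure D1:**
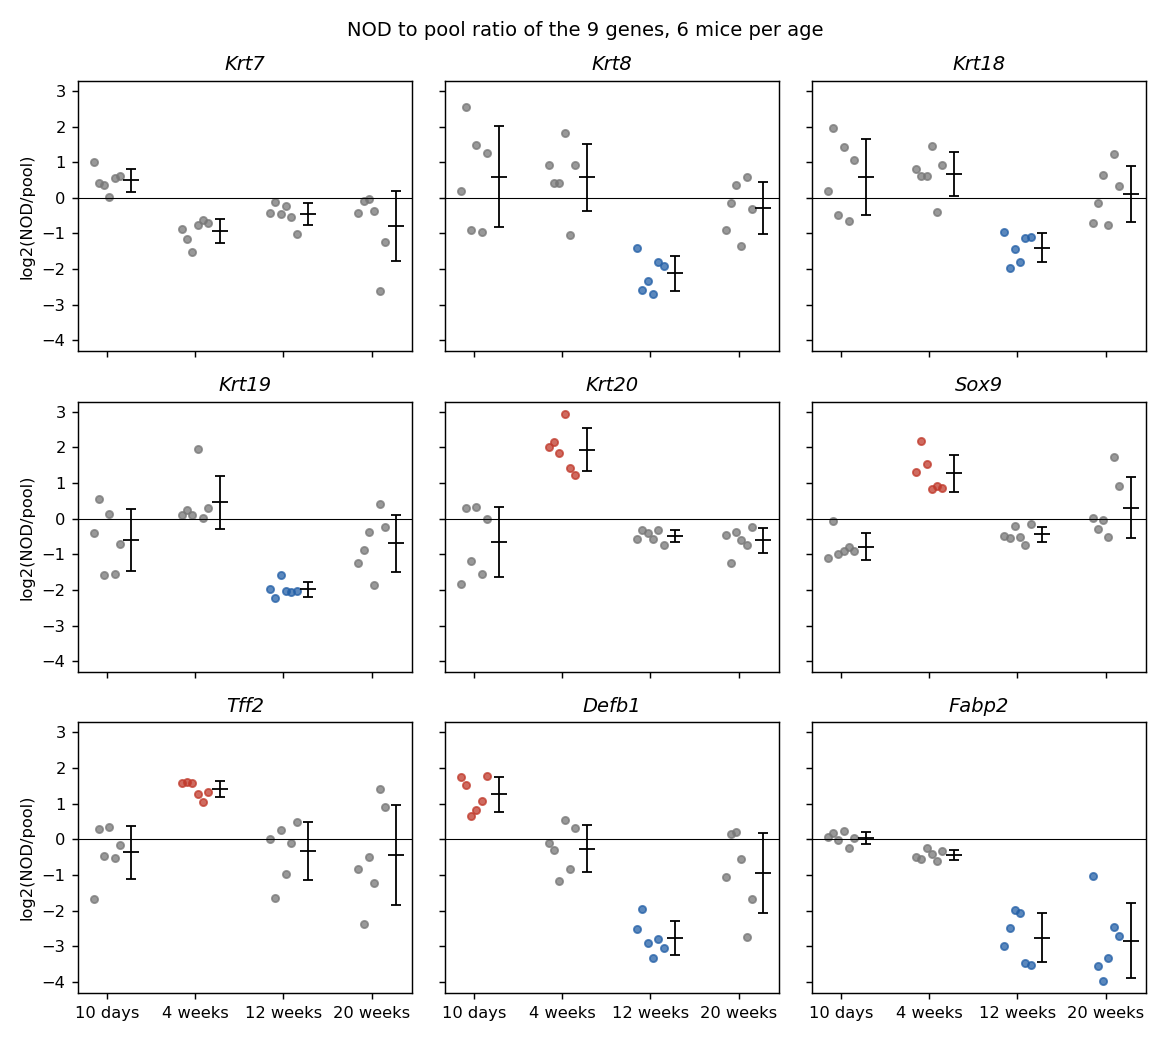
Ratio of NOD islets to the age-matched pool (log2) for each of the 9 genes by age; each point is 1 mouse, the bars to the right are mean and SD (n = 6), red points are ages called higher, blue points ages called lower and grey points ages not called. At 12 weeks all 6 mice lie below -0.94 for Krt8, Krt18, Krt19, Defb1 and Fabp2.

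Among the type II keratins, Krt8 separated the ages most. At 12 weeks its ratio in the 6 NOD mice ran from -2.71 through a median of -2.11 to -1.40, with every mouse below the pool. Its mean was -2.12 ± 0.50, a level 4.35-fold higher in the pool (adjusted p = 8.28e-05). At 10 days the mice disagreed: the ratio ran from -0.97 to 2.54, with 4 mice above and 2 below the pool, and the mean of 0.60 ± 1.41 was not called. The means of 0.58 ± 0.94 at 4 weeks and -0.30 ± 0.73 at 20 weeks were not called either, with mice on both sides of 0. A second Krt8 probe gave means of 0.69, 0.59, -2.11 and -0.25 from the first age to the last.

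Krt18, the partner of Krt8, had the same pattern. At 12 weeks its ratio ran from -1.98 through -1.27 to -0.94, and its mean was -1.39 ± 0.42, a level 2.63-fold higher in the pool (adjusted p = 0.000611). At the other ages it was not called, with means of 0.59 ± 1.07 at 10 days, 0.67 ± 0.61 at 4 weeks and 0.10 ± 0.78 at 20 weeks. Over the 24 arrays the ratios of Krt8 and Krt18 correlated with r = 0.9842, and their deviations from the age means with r = 0.9663. Points on the same array share its RNA and hybridisation, and arrays of an age share a pool.

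Krt19, a type I keratin of ducts, had the smallest spread of the 3 keratins called at 12 weeks. Its 6 mice lay between -2.22 and -1.59, and the mean was -1.98 ± 0.21, a level 3.95-fold higher in the pool (adjusted p = 5.46e-06). At 4 weeks 5 mice lay between 0.02 and 0.31, and replicate 4 lay apart at 1.96; the mean of 0.46 ± 0.74 was not called. At 10 days and 20 weeks the means were -0.60 ± 0.87 and -0.70 ± 0.80, with mice on both sides of 0 and no call. Without the 2 dimmest NOD samples the 20-week mean of Krt19 was -1.09 and was called lower (adjusted p = 0.00638). Its ratio correlated with that of Krt8 by r = 0.8645 and of Krt18 by r = 0.8852 over the 24 arrays.

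Krt7, the other type II keratin, was not called at 12 weeks. Its ratio there ran from -1.001 to -0.11 with a mean of -0.46 ± 0.31 (adjusted p = 0.104), and over the 24 arrays it correlated with Krt8 by r = -0.0002759. All 6 mice were above the pool at 10 days, with a mean of 0.49 ± 0.32, and all 6 below it at 4 weeks, with a mean of -0.93 ± 0.34 (adjusted p = 0.00123), just short of the 2-fold floor. At 20 weeks all 6 were again below the pool, and the mean of -0.79 ± 0.98 (adjusted p = 0.00435) held replicate 5 at -2.60 and replicate 6 at -1.23, the 2 dimmest NOD samples. A second Krt7 probe gave 0.69 ± 0.20, -0.57 ± 0.16, -0.27 ± 0.12 and -0.77 ± 0.39 at the 4 ages, with the same signs. Beside Krt7, the median ratio of 20 beta cell genes was 1.15, -0.70, -0.33 and -1.07 at the 4 ages. For 16 genes of other endocrine cells it was 1.85, -0.51, -0.05 and -0.47. The parts of duct and endocrine cells in the Krt7 ratio were not tested.

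Krt20, a keratin of intestinal epithelium, had the highest ratio of the 9 genes at 4 weeks. The 6 mice ran from 1.23 through 1.92 to 2.93, all above the pool, and the mean was 1.93 ± 0.61, 3.8-fold higher in NOD islets (adjusted p = 1.13e-06). At 12 weeks all 6 lay slightly below the pool, between -0.75 and -0.31, and the mean of -0.49 ± 0.17 was not called. Means of -0.66 ± 0.98 at 10 days and -0.61 ± 0.36 at 20 weeks were not called. With the scanner log ratio the means were -1.49 at 12 weeks and -1.34 at 20 weeks, both called. That setting called 3253 and 2989 of 18071 genes at these ages. Krt20 was dim at these ages, with NOD levels of 6.87 and 6.82. At 20 weeks it was well above background on 5 of 6 NOD arrays.

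Its level, read in each channel, differed more between ages than between strains. From the first age to the last, NOD mice averaged 11.55 ± 1.00, 10.95 ± 0.58, 6.87 ± 0.18 and 6.82 ± 0.36, and the pool channel read 12.21, 9.03, 7.36 and 7.43. Both channels read low at 12 and 20 weeks, and at 4 weeks the NOD channel was still near its 10-day level while the pool was not. Between NOD mice, Krt20 differed by -4.08 at 12 weeks against 4 weeks (adjusted p = 4.14e-08) and by -4.73 at 20 weeks against 10 days (adjusted p = 1.67e-09), and neither pair of groups overlapped. Pool levels come from 1 pool per age, so their differences were not tested.

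**Figure D2:**
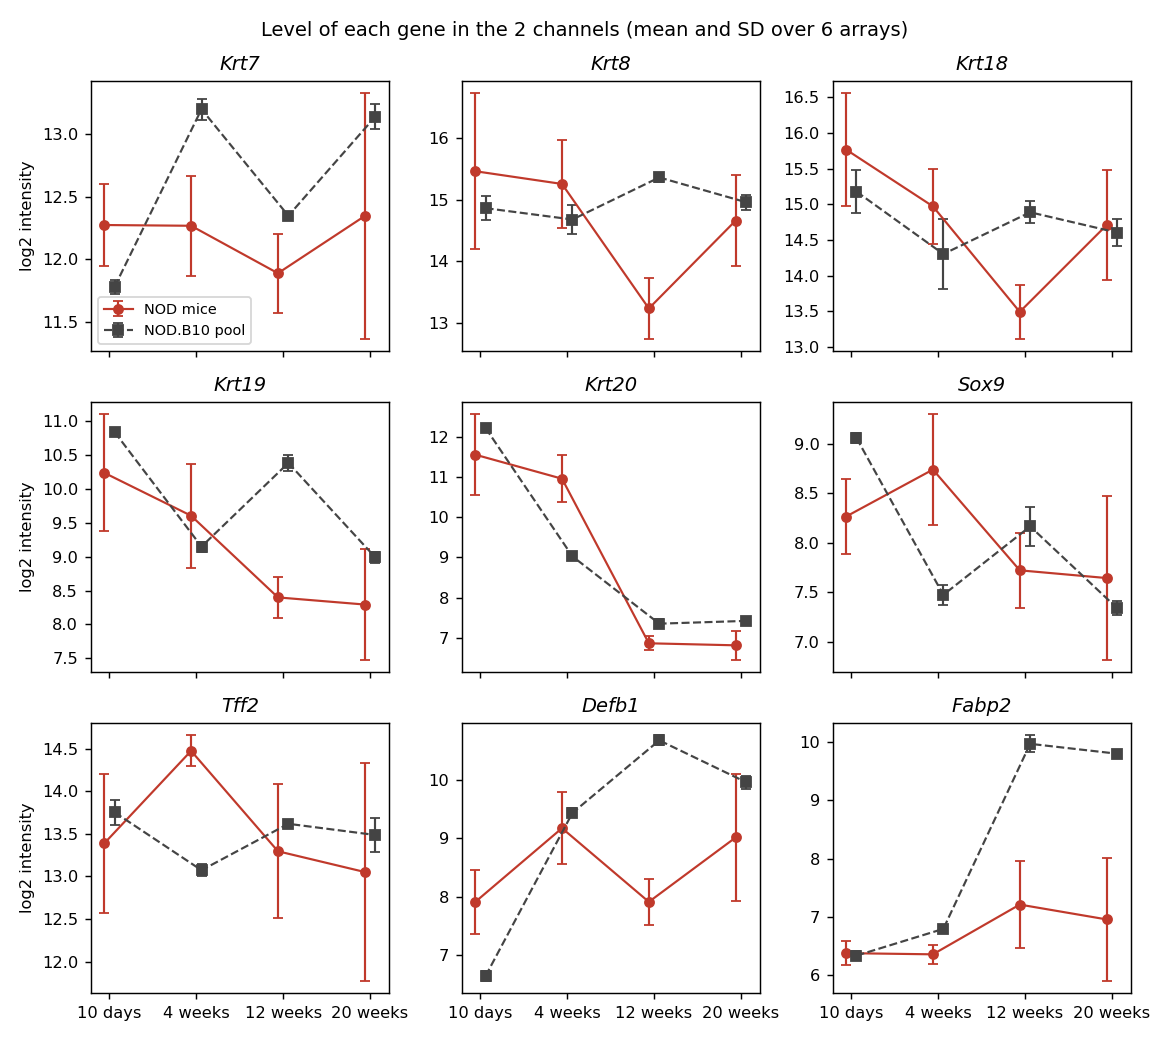
Log2 level of each gene in the NOD channel (red circles, solid line) and in the pool channel (grey squares, dashed line) by age; bars are SDs over 6 arrays, between mice for NOD and between readings of 1 pool for the pool, and each panel has its own axis. Krt20 is low in both channels at 12 and 20 weeks, while Fabp2 reaches 9.97 and 9.80 at these ages in the pool, beside 7.21 and 6.96 in NOD mice.

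Sox9, the duct transcription factor, was higher in NOD islets at 4 weeks. The ratio of its reported probe ran from 0.82 through 1.11 to 2.17, and the mean was 1.27 ± 0.53, 2.41-fold higher than the pool (adjusted p = 4.32e-05). At 10 days all 6 mice were below the pool, 5 of them between -1.11 and -0.79 and replicate 2 at -0.06; the mean of -0.79 ± 0.38 (adjusted p = 0.00317) was under 2-fold. Neither 12 weeks, with -0.44 ± 0.22, nor 20 weeks, with 0.30 ± 0.86, was called. The size at 4 weeks depended on the probe: the probe printed as 10 spots gave 0.67 ± 0.46 and the dim probe 0.39 ± 0.17, both with the same sign. On a single array the 10 spots had a median SD of 0.09. With the mean of all 3 probes, the ratio was 0.78 at 4 weeks and was not called.

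Tff2, the trefoil peptide, was higher in NOD islets at 4 weeks with little spread between mice. The 6 ratios lay between 1.04 and 1.62, and the mean was 1.40 ± 0.23, 2.64-fold higher than the pool (adjusted p = 0.0018). At the other ages mice lay on both sides of the pool and no mean was called: -0.36 ± 0.74 at 10 days, -0.32 ± 0.81 at 12 weeks and -0.44 ± 1.40 at 20 weeks. At 20 weeks the range ran from -2.38 in replicate 2 to 1.41 in replicate 5. Replicates 5 and 6 of that age were the 2 dimmest NOD samples. Without them the 20-week mean of Tff2 was -1.23 and was called lower (adjusted p = 0.00305), where 1041 of 18071 genes were called.

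The 3 genes called at 4 weeks stood beside acinar cell markers. Of 26 acinar genes measured, 22 were called higher and none lower at 4 weeks, with a median ratio of 1.35 and a list mean per mouse between 1.00 and 1.74. At 20 weeks the acinar mean ran from -2.41 to 2.04 between mice. The genes whose ratio was most like Tff2 over the 24 arrays were Vtn (r = 0.9928), Ifna9 (r = 0.9872) and Cel, the acinar carboxyl ester lipase (r = 0.9842), and for deviations from the age means they were Vtn (0.9923), Try5 (0.992) and Ctrl (0.9919). For Krt20 they were Vill (0.9151), Itln1 (0.9029) and Ydjc (0.8978), and for Sox9 Rab11fip2 (0.9374), Slc11a2 (0.9326) and Proser2 (0.9294). The part of acinar tissue in the ratios of these 3 genes was not tested.

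Defb1, the beta-defensin, changed sign between the ages. At 10 days its ratio lay between 0.65 and 1.76 in all 6 mice, and the mean was 1.26 ± 0.48, 2.4-fold higher in NOD islets (adjusted p = 0.000725). At 12 weeks it lay between -3.33 and -1.96 in all 6, and the mean was -2.76 ± 0.48, a level 6.76-fold higher in the pool (adjusted p = 1.16e-07). Mice lay on both sides of 0 at 4 weeks (-0.26 ± 0.66) and at 20 weeks (-0.94 ± 1.13), the second short of the 2-fold floor at an adjusted p of 0.00818. A second probe, which shares 49 of its 60 bases with the first, gave 0.95 ± 0.42 at 10 days and -2.70 ± 0.54 at 12 weeks.

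The channels show both strains. The pool read 6.65, 9.43, 10.67 and 9.96 at 10 days, 4 weeks, 12 weeks and 20 weeks, and NOD mice averaged 7.91 ± 0.55, 9.17 ± 0.61, 7.91 ± 0.39 and 9.01 ± 1.09. Between NOD mice, Defb1 was higher by 1.26 at 4 weeks than at 10 days (adjusted p = 0.0184) and differed by -1.26 at 12 weeks against 4 weeks (adjusted p = 0.0171); both pairs of groups overlapped. Beside its higher ratio at 10 days, 11 of 20 beta cell genes and 10 of 16 genes of other endocrine cells were called higher there, with list means per mouse of 0.40 to 1.49 and 0.74 to 1.80. Also at 10 days, 10 of 14 stellate cell and fibroblast genes were called lower. The genes most like Defb1 were Asb4 (r = 0.9718), Msmo1 (0.9648) and Lpin1 (0.9595). The part of the cell mix in the 10-day ratio was not tested.

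Fabp2, the intestinal fatty acid binding protein, was the gene that stayed low to the last age. At 12 weeks its ratio ran from -3.51 through -2.74 to -1.98, and the mean was -2.75 ± 0.68, a level 6.75-fold higher in the pool (adjusted p = 1.45e-08). At 20 weeks it ran from -3.96 through -3.02 to -1.02, and the mean was -2.84 ± 1.05, 7.16-fold higher in the pool (adjusted p = 5.61e-09). All 6 mice were below the pool at both ages. At 10 days the mean was 0.04 ± 0.17 and at 4 weeks -0.44 ± 0.14, neither called, and the probe was then close to background: it was well above it on 5 NOD and 1 pool array of 6 at 10 days, and on 4 NOD and 6 pool arrays at 4 weeks.

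The level in the pool was 6.34 and 6.80 at 10 days and 4 weeks and 9.97 and 9.80 at 12 and 20 weeks. NOD mice averaged 6.38, 6.36, 7.21 and 6.96 at the same ages, and no NOD contrast between ages was called for this gene. The second Fabp2 probe was never well above background in the NOD channel. At 12 weeks it was above background on 1 pool array of 6, so no fold is given there. At 20 weeks it was above background on all 6 pool arrays, and the pool was at least 1.23-fold higher by that probe, with a measured mean ratio of -0.31. This bound sets the pool's mean level against the higher of the lowest signal well above background and the probe's own NOD signal on each array.

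The genes whose ratio was most like Fabp2 over the 24 arrays were Prap1 (r = 0.9392), Defa20 (r = 0.921) and Fabp1 (r = 0.9086), and for deviations from the age means Prap1 (0.9217), Mogat2 (0.8735) and Fabp1 (0.8643). Of 15 gut and stomach genes measured, 5 were called lower at 12 weeks and none higher. They are named after their values were seen: Fabp1, another fatty acid binding protein of liver and gut (-2.47 ± 0.65), Tff3, a trefoil peptide (-1.49 ± 0.31), Lgals4, a galectin (-1.41 ± 0.27), Agr2, a secretory protein of mucous cells (-1.23 ± 0.29), and Guca2a, or guanylin (-1.07 ± 0.23). Fabp1 (-1.46 ± 0.94) and Tff3 (-1.22 ± 0.60) were also called lower at 20 weeks. The list mean per mouse ran from -0.78 to -0.41 at 12 weeks and from -0.69 to -0.23 at 20 weeks. The list median was -0.14 at 12 weeks, where 10 of the 15 were not called, and -0.26 at 20 weeks. Some of these genes were dim. Of 24 NOD arrays, Tff3 was well above background on 9, Agr2 on 14, Fabp1 on 16, Guca2a on 20 and Lgals4 on all 24.

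The lower ratios at 12 weeks stood beside markers of immune cells. Of 16 T and B cell genes, 11 were called higher at 12 weeks, with a list mean per mouse between 1.19 and 2.24, and 12 at 20 weeks, with a mean between 1.05 and 2.64. Of 14 macrophage and dendritic cell genes, 8 were called higher and 1 lower at 12 weeks, with list means of 0.57 to 1.24, and 10 higher at 20 weeks, with list means of 0.82 to 1.91. Beta cell genes were called lower in 4 of 20 cases at 12 weeks (list mean -0.89 to -0.03) and in 11 at 20 weeks (-2.32 to -0.63). The part of infiltrating cells in the ratios was not tested.

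Other genes of ducts and epithelia were counted in the same way. Of 48 measured of 52 listed, 5 were called lower and 1 higher at 12 weeks, with a median of -0.31. The lowest were the tight junction protein Cldn4 (-1.83 ± 0.25), the keratin Krt17 (-1.82 ± 0.18) and the keratin Krt23 (-1.45 ± 0.59), and Slpi, a secreted protease inhibitor, was higher (1.99 ± 0.52). At 10 days 5 were lower, led by the epithelial transcription factor Grhl2 (-1.504 ± 0.45), Krt17 (-1.27 ± 0.94) and Wfdc2 (-1.11 ± 0.64), and the tetraspanin Tspan8 was higher (1.42 ± 0.48). At 4 weeks Cd24a alone was called (1.48 ± 0.21), and at 20 weeks Slpi (1.74 ± 1.03) and the water channel Aqp1 (1.31 ± 0.46), all higher. Of all genes 3.98%, 2.79%, 3.51% and 5.1% were called from the first age to the last. The counts of 1 of 48 at 4 weeks and 2 of 48 at 20 weeks are not read as results about this list. Of 19 genes of epithelial injury and inflammation, 7 were called lower and none higher at 12 weeks, with a median of -0.87. At 12 weeks none of 5 mesothelial genes was called.

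Set between ages, the ratio moved most from 4 to 12 weeks. At 12 weeks against 4 weeks, 8 of the 9 genes were called and all were lower, where 6.05% of all genes were called and 3.08% lower. The differences were -2.70 ± 0.52 for Krt8, -2.06 ± 0.41 for Krt18, -2.44 ± 0.39 for Krt19 and -2.41 ± 0.33 for Krt20 (SE). They were -1.71 ± 0.30 for Sox9, -1.72 ± 0.49 for Tff2, -2.50 ± 0.40 for Defb1 and -2.32 ± 0.35 for Fabp2. The adjusted p-values ran up to 0.0077, for Tff2, and for all 8 the mice of the 2 ages did not overlap. How many of all genes had no such overlap was not counted, here or for the other pairs of ages. Krt7 was the exception, at 0.47 ± 0.31. In the same contrast 16 of 26 acinar genes were called lower and none higher, with a median of -1.46. Of 48 other duct and epithelial genes 9 were called lower and 2 higher. Of 19 genes of epithelial injury and inflammation 7 were called lower and none higher. The part of the cell mix in these differences was not tested. With the mean of its 3 probes Sox9 was -0.96 and not called. Under median centring of each array in place of loess, Krt8 (-1.30), Krt18 (-0.66), Sox9 (-0.66), Tff2 (-0.31) and Defb1 (-1.13) were not called, and Krt7 (1.90) was called higher. These ages shared no slide, so no value within a slide could be had.

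The pool levels also differed between 4 and 12 weeks, read from 1 pool per age and not tested. The pool channel was higher at 12 weeks than at 4 weeks for 7 of the 9 genes, all but Krt7 and Krt20. The share of all genes with a higher pool level was not counted. For Krt20 the pool read 7.36 at 12 weeks against 9.03 at 4 weeks. For Krt8 the NOD channel read 13.24 at 12 weeks against 15.25 at 4 weeks, while the pool read 15.36 against 14.68. In the NOD channel alone 6 genes were called at 12 weeks against 4 weeks, all lower, with 5.36% of all genes called and 1.06% lower. They were Krt20 (above), Krt8 (-2.01, adjusted p = 0.00217), Krt18 (-1.48, adjusted p = 0.00271), Krt19 (-1.20, adjusted p = 0.0237), Defb1 (above) and Sox9 (-1.02, adjusted p = 0.0157). Mice of the 2 ages overlapped for Sox9 and Defb1 and not for the 4 keratins. Without replicate 4 of the 4-week mice or replicate 2 of the 12-week mice Krt19 was not called, at -0.89 and -1.12, and Sox9 lost its call without replicate 1, 2 or 3 of the 4-week mice or replicate 1, 2 or 5 of the 12-week mice, at -0.83 to -0.99. Outside the 6, Fabp2 (1.03, higher) was called without 12-week replicate 5 and Tff2 (-1.34) without 12-week replicate 6.

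At 4 weeks against 10 days, 6 genes were called, 4 higher and 2 lower, with 9.01% of all genes called, 5.16% higher and 3.85% lower. Krt20 (2.59 ± 0.33), Sox9 (2.06 ± 0.30), Tff2 (1.77 ± 0.49) and Krt19 (1.05 ± 0.39) were higher, and Krt7 (-1.42 ± 0.31) and Defb1 (-1.52 ± 0.40) were lower. Mice of the 2 ages overlapped for Krt19 alone, which also lost its call without 4-week replicate 4 (0.75) or without 10-day replicate 3 (0.86) or 5 (0.86), with the scanner log ratio (1.04) and in a fit on the arrays of its own ages alone (1.05). Under median centring Tff2 (0.77) and Krt19 (-0.08) were not called. On the slide with 2 arrays of each age the differences were 2.85 for Krt20, 2.59 for Sox9 and 1.93 for Tff2. They were 1.30 for Krt19, -1.58 for Krt7 and -1.63 for Defb1. All 6 had the same sign as in the full fit and no overlap. With 2 arrays against 2 that lack of overlap says little, and its share over all genes was not counted. With slide as a fixed block Krt19 and Defb1 were not called. Among NOD levels Defb1 was the 1 gene called, higher, with 3.35% of all genes called and 1.84% higher. Its ratio was lower, as the pool read 6.65 at 10 days and 9.43 at 4 weeks. NOD levels of Krt20 (-0.60), Krt19 (-0.63), Krt7 (-0.006), Sox9 (0.47) and Tff2 (1.09) were not called. At 10 days and 4 weeks the pool read 12.21 and 9.03 for Krt20, and 10.84 and 9.15 for Krt19. It read 11.78 and 13.20 for Krt7, 9.06 and 7.47 for Sox9, and 13.75 and 13.07 for Tff2. In the ratio between these ages, 20 of 26 acinar genes were called higher and none lower, with a median of 1.60. Of 20 beta cell genes 18 were called lower and none higher. The part of the cell mix was not tested here either.

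At 20 weeks against 12 weeks, 4 genes were called, all higher: Krt8 (1.82 ± 0.52, adjusted p = 0.0121), Krt18 (1.499 ± 0.41, adjusted p = 0.00978), Krt19 (1.29 ± 0.39, adjusted p = 0.0165) and Defb1 (1.81 ± 0.40, adjusted p = 0.0022). Of all genes 2.41% were called and 2.01% higher. Mice of the 2 ages overlapped for Krt19 and Defb1. On the slide with 2 arrays of each age the differences were 1.33 for Krt8, 0.69 for Krt18, 0.98 for Krt19 and 2.48 for Defb1, and with slide as a fixed block none of the 4 was called. In the NOD channel Krt18 was the 1 gene called (1.21, adjusted p = 0.0451), where 0.354% of all genes were called and 0.227% higher, and that call ended without any 1 of the 12-week mice and without replicate 2, 3, 5 or 6 of the 20-week mice, at 0.98 to 1.30. Defb1 (1.43) was called there without 20-week replicate 5. With quantile scaling of the NOD channel Krt18 (0.93) was not called and Defb1 (1.27) was, where 86 of 18071 genes were called. The NOD level of Krt19 differed by -0.11, while its pool read 10.38 at 12 weeks and 8.99 at 20 weeks. Without the 2 dimmest NOD samples Krt18 (1.16) and Krt19 (0.89) lost their call in the ratio. In the NOD channel without these samples Krt18 (0.85) lost its call, and Krt7 (1.02) and Defb1 (1.69) were called.

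At 20 weeks against 10 days, Sox9 was higher (1.10 ± 0.30; 0.67 and not called with the mean of its 3 probes) and Krt7 (-1.29 ± 0.31), Defb1 (-2.20 ± 0.40) and Fabp2 (-2.88 ± 0.35) were lower. That made 4 of 9 where 12.5% of all genes were called, 7.74% higher and 4.8% lower. Without replicate 5 of the 20-week mice, which had the highest Sox9 and the lowest Krt7 ratio of its age, Sox9 (0.81) and Krt7 (-0.92) were not called, and without replicate 6 Sox9 (0.97) was not. These ages shared no slide. Mice of the 2 ages overlapped for Sox9 alone of the 4. Between NOD mice, the levels of Sox9 (-0.62), Krt7 (0.07) and Fabp2 (0.58) were not called. The pool read 9.06 at 10 days and 7.34 at 20 weeks for Sox9. For Krt7 the pool read 11.78 and 13.14, and for Fabp2 6.34 and 9.80. In the NOD channel Krt18 (-1.06), Krt19 (-1.94) and Krt20 were lower and Defb1 (1.10) was higher, with 5.06% of all genes called, 3.38% higher and 1.68% lower. Krt18 lost that call without replicate 2, 4 or 6 of the 10-day mice or replicate 1 or 4 of the 20-week mice (-0.99 to -0.87). Defb1 lost it without replicate 3, 4 or 5 of the 10-day mice or replicate 2, 3 or 4 of the 20-week mice (0.85 to 1.06).

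The genes most like each keratin differed between keratins. Over the 24 arrays Krt8 was closest to Tuft1 (r = 0.967), Bsdc1 (0.9621) and Ets2 (0.9599), and Krt18 to Ifrd1 (0.9618), Tnfrsf12a (0.9532) and Ceacam1 (0.9492). For deviations from the age means Ifrd1 was the closest gene to both, with r = 0.9717 to Krt8 and 0.9739 to Krt18. Krt19 was closest to Mt2 (0.9323), Pdgfa (0.9304) and Tmbim1 (0.9202). Krt7 was closest to Pmvk (0.9712), Lysmd2 (0.9587) and Scg3 (0.9519), the last a protein of endocrine secretory granules. Among the 9 genes, the most opposed pair was Krt7 and Sox9, with r = -0.806 over the 24 arrays and -0.7939 for the deviations. These correlations describe 24 arrays that share pools by age.

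The normalization bore on the 12-week keratins. Loess within each array brought the median of all genes close to 0, while centring each array on the median of its spots left it at 0.38, -0.15, 0.50 and -0.21 at the 4 ages. Under that centring Krt8 was -0.94, Krt18 -0.22 and Krt19 -0.97 at 12 weeks and not called, while Defb1 (-1.75) and Fabp2 (-1.87) were still called; all 5 stayed below the median of all genes. At 4 weeks Krt20 (1.57) and Tff2 (1.15) were called and Sox9 (0.95) was not. The 20-week minus 12-week differences turned below 0 for Krt8 (-0.03), Krt18 (-0.35) and Krt19 (-0.21), and Defb1 (0.29) was not called, with the all-gene median at -0.78. The scanner software's own log ratio kept all 5 calls at 12 weeks and added Krt20 (-1.49). It called 3253 of 18071 genes at that age, beside 635 under loess.

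**Figure D3:**
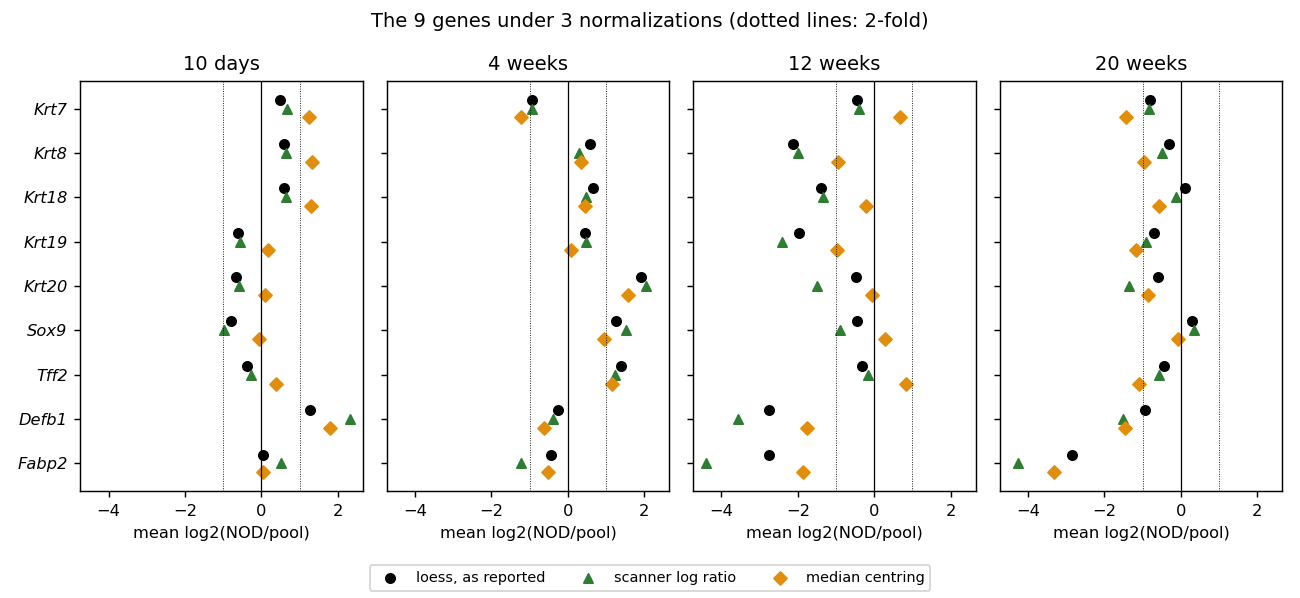
Mean ratio of NOD islets to the pool (log2) for the 9 genes at each age under loess as reported (circles), the scanner software's log ratio (triangles) and median centring of each array (diamonds); dotted lines mark 2-fold. At 12 weeks Defb1 and Fabp2 lie beyond 2-fold under all 3, and Krt8, Krt18 and Krt19 under the first 2.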

How the data were processed

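Feature Extraction 10.7.3.1 produced the deposited scanner files (array design 014868, mm9), per the file headers. The deposited intensity of a spot is the mean of its pixels in each channel, beside its background and flags, for 45018 spots with 1639 controls. Total RNA of 300 ng was labelled, per the labels. The scanner's log ratio is a log10 value, per the file headers. The deposited value table holds log2 ratios of 22088 noncontrol probes, which equalled the scanner log ratio turned to log2 within 1e-05 for 99.1% of values or more; column medians ran from -0.18 to 0.09, so columns were not centred. How the authors chose its probes is not given in the sources used here.

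Software was R 4.3.3, with data.table (version 1.17.8), statmod (1.5.0) and limma (3.58.1). Steps were normexp background correction (offset 50), within-array loess, outlier-flagged spots set to missing (44 missing ratios among genes tested), and spots averaged. Of the probes, 25910 were kept, each clear of background on 6 arrays or more in either channel. The brightest probe stood for a gene. Names came from RefSeq accession (27050 probes), current symbol (4154), older symbol (589) or the file's name (9381). Channel levels are loess and Aquantile values. A single limma fit, with 1 mean for each age, covered all 24 arrays (prior 2.62 degrees of freedom). All arrays had 1 dye orientation, so a probe's dye effect stays in an age's ratio and drops out between ages. All 9 members were named whatever their result, with at most 3 called list genes per direction and age and the 3 genes most correlated with each member. The members and lists were chosen with earlier results of these data known. Steps were tested on simulated data. Same-numbered mice of different ages did not deviate together. The number of arrays limits the precision.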

Additional observations from a re-analysis of the deposited data

Results flagged for a closer look

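Among 36 groups of 6 mice (9 genes at 4 ages), 2 held a mouse far from the other 5, where chance gives about 1 in 20. Krt19 in 4-week replicate 4 had a ratio of 1.959, and the other 5 averaged 0.15 ± 0.11. That mouse also had the highest Krt8, Krt18 and Krt20 ratios of its age. Sox9 in 10-day replicate 2 had -0.05615, and the other 5 averaged -0.94 ± 0.12; that mouse had the highest Krt8, Krt18 and Krt19 ratios of its age.

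The ratio differed between ages in 22 of 36 contrasts by limma's test of the difference. At 4 weeks minus 10 days these were Krt7 (-1.42), Krt19 (1.05), Krt20 (2.59), Sox9 (2.06), Tff2 (1.77) and Defb1 (-1.52). At 12 weeks minus 4 weeks they were Krt8 (-2.70), Krt18 (-2.06), Krt19 (-2.44), Krt20 (-2.41), Sox9 (-1.71), Tff2 (-1.72), Defb1 (-2.50) and Fabp2 (-2.32). At 20 weeks minus 12 weeks they were Krt8 (1.82), Krt18 (1.499), Krt19 (1.29) and Defb1 (1.81). At 20 weeks minus 10 days they were Krt7 (-1.29), Sox9 (1.10), Defb1 (-2.20) and Fabp2 (-2.88). Each compares NOD mice with 1 pool per age, and the spread between pools was not measured.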

How the results depend on the processing

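Counts below are of the 9 genes called. Under median centring 4 were called at 10 days (all higher), 2 at 12 weeks, 5 at 20 weeks (all lower), 4 at 12 minus 4 weeks (1 higher, 3 lower), 3 at 20 minus 12 weeks (all lower, the opposite of the reported direction) and 7 at 20 weeks minus 10 days. Single values that turned below 0 there were Krt19 at 4 weeks minus 10 days (-0.0833), Krt8 (-0.027), Krt18 (-0.35) and Krt19 (-0.21) at 20 minus 12 weeks and Sox9 at 20 weeks minus 10 days (-0.0046), and 11 values that were not called changed sign as well. Of the genes called under median centring, the share called higher was 98.1% at 10 days and 17.3% at 4 weeks. It was 99.3% at 12 weeks and 24.8% at 20 weeks. Under loess that share of called genes was 40.6%, 68.5%, 59.5% and 75.8% at the 4 ages. The scanner log ratio gave 55.5% at 10 days, 57.3% at 4 weeks and 49.4% at 20 weeks. The contrasts follow in the order 12 minus 4 weeks, 4 weeks minus 10 days, 20 minus 12 weeks and 20 weeks minus 10 days. Of their called genes, 99.6%, 1.88%, 0.3% and 6.3% were higher under median centring. The scanner log ratio gave 60.2%, 45.8%, 34.1% and 44%, and loess gave 49.2%, 57.2%, 83.3% and 61.7%. Of 18071 genes tested, median centring called 2755 at 10 days, 4290 at 12 weeks and 1824 at 20 weeks. Loess called 719, 635 and 922 at these ages. Median centring called 7103 genes at 12 minus 4 weeks, 7665 at 20 minus 12 weeks and 7069 at 20 weeks minus 10 days. Loess called 1094, 436 and 2266 there. The scanner log ratio called 3253 genes at 12 weeks. At 20 weeks the scanner log ratio and the deposited table each called 3 of the 9, and an offset of 16 called 2. Of all genes, these 3 settings called 2989 of 18071, 2344 of 15724 and 1303 of 18071. Without a fold floor 3 were called at 10 days (1 higher, 2 lower) and 5 at 20 weeks. There 9239 and 8846 of all 18071 genes were called, so these counts are not read as results about the 9 genes. Without the 2 dimmest NOD samples 3 were called at 20 weeks, with Tff2 and Krt19 added, both lower. In that setting 2 were called at 20 minus 12 weeks and 2 at 20 weeks minus 10 days. In the NOD channel 2 were called at 20 minus 12 weeks, Krt7 and Defb1. Of 18071 genes, 1041, 623, 2294 and 301 were called in the same order. Slide as a fixed block left 0 at 20 minus 12 weeks; as a random block (correlation -0.0924) it changed no call. The cause of these changes was not tested.

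Leaving out 1 array at a time, the counts stayed at 1 at 10 days, 3 at 4 weeks, 5 at 12 weeks, 8 at 12 minus 4 weeks and 4 at 20 minus 12 weeks. They ran from 1 to 2 at 20 weeks (2 without replicate 2, 3 or 4 of that age, with Defb1 added), 5 to 6 at 4 weeks minus 10 days and 2 to 4 at 20 weeks minus 10 days. In the NOD channel they were 1 at 4 weeks minus 10 days, 4 to 7 at 12 minus 4 weeks, 0 to 1 at 20 minus 12 weeks and 2 to 4 at 20 weeks minus 10 days.

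Same-numbered mice of different ages had a median correlation of deviations of -0.1043, against -0.006941 for other numbers, so the numbers do not pair the mice. With a replicate block the NOD channel had 0 of the 9 called at 20 minus 12 weeks (Krt18 at 1.21), and no other call changed. Quantile scaling of the pool channel kept 7 genes higher in the pool at 12 than at 4 weeks. Among dim probes, Fabp2 at 10 days and 4 weeks is limited by its signal over background, and Krt20 was dim at 12 and 20 weeks.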
